A study of Mus musculus with 12 samples.

Results

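The genes described here were 10 long noncoding RNAs of the mouse, chosen by symbol from 55357 rows in each of 2 raw count tables, and all 10 had a row in both tables. They were the nuclear RNAs Malat1, Neat1 and Kcnq1ot1, the small nucleolar RNA (snoRNA) hosts Gas5, Snhg1, Snhg3, Snhg5, Snhg8 and Snhg12, and the microRNA host Mir22hg. RNA-seq counts came from 12 libraries in 4 groups of 3. The first table held livers of wild-type C57BL6/J male mice aged 8 to 9 weeks, which received control diet (10% kcal fat) for 4 days and then high-fat diet (60% kcal fat) for 3 days, with gavage of esculetin at 90 mg/kg/d or of 2.5% Tween-80 over the 7 days. The second table held wild-type RAW264.7 cells, an established mouse macrophage line, given 25 µg/mL DIL-oxLDL, a fluorescently labelled oxidised lipoprotein, for 24 h with 40 µg/mL esculetin or with its solvent DMSO. Esculetin is a plant coumarin. Each liver library was made from a pair of mice, and all cell libraries came from 1 line, so the p-values below measure the spread between those samples.

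Long noncoding RNAs act as RNA without being translated. Malat1 accumulates in nuclear speckles, the bodies that store splicing factors, and Neat1 is the scaffold of paraspeckles, nuclear bodies built with RNA-binding proteins such as SFPQ and NONO. Kcnq1ot1 is a long antisense RNA of the paternal chromosome that silences an imprinted gene cluster. Host genes such as Gas5 carry snoRNAs in their introns. The snoRNAs are cut out of the intron and guide modification of ribosomal RNA, whereas the spliced host RNA reaches the cytoplasm and is often destroyed by nonsense-mediated decay. Mir22hg is the precursor of miR-22.

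Malat1 (chr19:5845717-5853602, minus strand, GRCm39) and Neat1 (chr19:5874736-5897132, minus strand, GRCm39) were each annotated as a single exon block, of 7886 and 22397 bases. Both carry near their 3′ end the U-rich and A-rich elements that fold into a triple helix and protect an RNA end without a poly(A) tail, which bears on how well a library captures them. The stretches below (GRCm39, minus strand, DNA letters) show the 3 elements in capitals, with TTTCTTTT and TTTTGCTTTT as the U-rich ones and AAAAAGCAAAA as the A-rich one. The stretch of Malat1 lies at chr19:5846010-5846093, 293 bases before the annotated end, and that of Neat1 at chr19:5874736-5874825 reaches the annotated end.
Malat1: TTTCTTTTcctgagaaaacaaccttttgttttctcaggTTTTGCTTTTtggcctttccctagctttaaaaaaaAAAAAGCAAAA
Neat1: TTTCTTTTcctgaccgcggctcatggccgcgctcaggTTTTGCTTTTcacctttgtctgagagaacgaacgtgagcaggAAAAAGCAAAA
The A-rich element was the annotated last 11 bases of Neat1, and the second U-rich one was 10 bases of its reverse complement. The presence of that A-rich element in Neat1 was therefore set by the choice of elements. The first U-rich element and the span of 120 bases were also set by hand, and a match in Malat1 and Neat1 was required. Of 32884 canonical long noncoding transcripts searched on their own strand, only Malat1 and Neat1 held the 3 elements in this order within 120 bases. That these 2 matched was thus fixed in advance, and the search shows only that no other transcript did. The A-rich element alone was in 91 of them (0.277%).

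The microRNA carried by Mir22hg is shown because its host changed most in the cells. The mature sequences are those of RefSeq (GRCm38.p6, chr11:75463734-75463755 and chr11:75463772-75463793, plus strand), with the seed, bases 2 to 8, in capitals.
mmu-miR-22-5p: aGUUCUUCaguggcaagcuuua
mmu-miR-22-3p: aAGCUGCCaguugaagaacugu
Among 1679 mature mouse miRNAs of the same source, no other shared either seed.

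For the snoRNA hosts the first bases of the transcript are shown, since many hosts start with a run of C and T like that of ribosomal protein mRNAs. Each window runs from 10 bases before the RefSeq start (GRCm38.p6) to 20 bases from it, and capitals mark a run of at least 5 C or T that opens with C within 2 bases of the start. Gas5 had a pair of annotated starts.
Gas5 start 1: gcgggcccgcgagctcgacagcccggagcc
Gas5 start 2: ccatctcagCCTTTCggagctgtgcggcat
Snhg1: tcttgtcggcctcatttttccttgttcggg
Snhg3: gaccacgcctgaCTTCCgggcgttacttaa
Snhg5: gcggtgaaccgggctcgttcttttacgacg
Snhg8: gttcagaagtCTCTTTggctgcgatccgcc
Snhg12: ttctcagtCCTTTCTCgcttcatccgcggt
Such a run was found at a start of 4 of the 6 hosts (Gas5, Snhg3, Snhg8 and Snhg12) and of none of the 3 other RNAs with an entry (Malat1, Kcnq1ot1 and Mir22hg). It was found for 18 of 59 noncoding snoRNA hosts (30.5%), for 30 of 211 coding hosts (14.2%) and for 2863 of 27025 genes (10.6%) in the table. A pair of the snoRNAs inside Gas5 (chr1:160861793-160866118, plus strand, GRCm39) are shown with box C (TGATGA) and box D (CTGA), the motifs that snoRNA proteins bind, in capitals (chr1:160865652-160865728 and chr1:160865171-160865251, plus strand, GRCm39).
Snord47: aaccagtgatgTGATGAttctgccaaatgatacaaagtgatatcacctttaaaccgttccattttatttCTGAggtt
Snord80: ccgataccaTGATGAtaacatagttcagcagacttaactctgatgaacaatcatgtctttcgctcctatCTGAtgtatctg

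Library totals ran from 13752842 to 20346460 counts. Levels are given as CPM, counts per 1000000 counts, after scaling of library sizes by edgeR's trimmed mean of M-values (TMM). A gene was called when its Benjamini-Hochberg adjusted p in edgeR's quasi-likelihood test, over all genes tested, was under 0.05. The tissue labels matched the marker genes: summed hepatocyte markers were 103092 to 131724 CPM in the liver and at most 0.512 CPM in the cells. Of 6 Kupffer cell markers, 5 were at 0 in the control cells, and the remaining one, Cd5l, gave a sum of 2.02 to 2.21 CPM. In the esculetin cells only C1qa and Timd4 were at 0, and the sum was 0.293 to 1.02 CPM. Summed levels of 8 macrophage markers were 159 to 201 CPM in the liver, 2476 to 2656 CPM in control cells and 5229 to 7814 CPM in esculetin cells. In liver, a change in the number of cells of a type cannot be told apart from a change in RNA per cell.

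**Figure D1:**
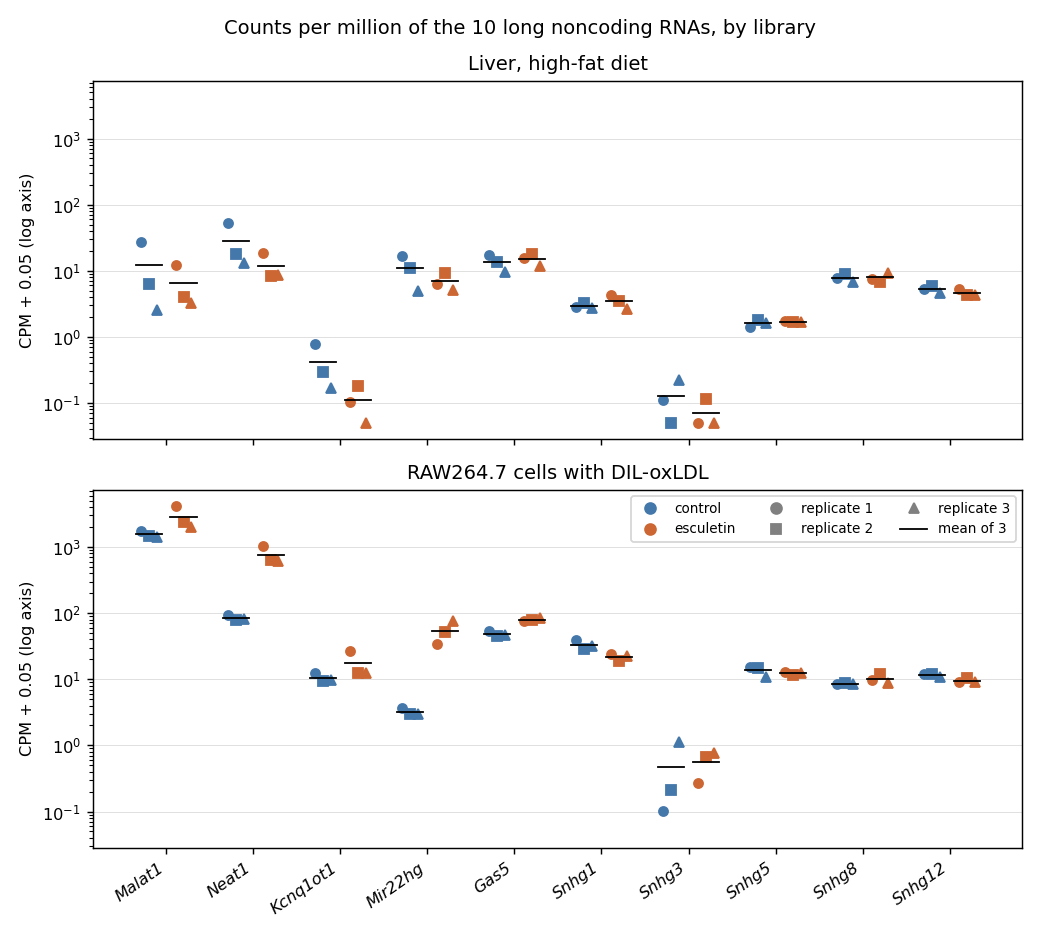
CPM of the 10 RNAs in each library on a log axis, with 0.05 CPM added so that libraries at 0 can be drawn; circles, squares and triangles are replicates 1, 2 and 3, black lines are means of 3, and controls are blue and esculetin libraries orange. In RAW264.7 cells all esculetin libraries lay above all control libraries for Malat1, Neat1, Mir22hg and Gas5 and below them for Snhg1 and Snhg12, whereas in the liver the groups overlapped for each RNA.

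In RAW264.7 cells, 6 of the 10 RNAs differed between esculetin and control, 5 higher and 1 lower. Mir22hg rose 16.9-fold and Neat1 8.98-fold. Malat1, Kcnq1ot1 and Gas5 rose by 1.63- to 1.86-fold, and Snhg1 fell to 0.655 of the control level. Since 57.7% of the 13277 genes tested were called in the cells (28.7% higher and 29.0% lower), a share of 6 in 10 called was near that of all genes. The groups did not overlap for 6 of the 10 RNAs, against 64.1% of genes tested.

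Neat1 was at 94.1, 78.5 and 82.7 CPM in the 3 control libraries and at 1030.4, 642 and 621 CPM in the esculetin libraries. The lowest esculetin library was far above the highest control. The means were 85.1 ± 8.08 and 764 ± 231 CPM (SD, n = 3 each), and the edgeR estimate on the log2 scale was 3.17 (SE 0.18, adjusted p = 2.33e-07). Malat1, the most abundant of the set, was at 1773, 1452 and 1426 CPM in control cells and at 4203, 2418 and 2023 CPM in esculetin cells. The groups were separate, and the first esculetin library stood above the rest of its group. The estimate was 0.89 (SE 0.22, edgeR adjusted p = 0.00486), and 0.52 without that library (adjusted p = 0.00113).

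Kcnq1ot1 (chr7:142731402-142850327, minus strand, GRCm39) was at 12.4, 9.52 and 9.78 CPM in control cells and at 27.2, 12.3 and 12.5 CPM in esculetin cells. The highest control library lay among the lower pair of esculetin libraries, so the groups overlapped, and the first esculetin library stood apart. The estimate was 0.70 (SE 0.27, edgeR adjusted p = 0.0440). It was 0.23 without the first esculetin library (adjusted p = 0.238), and the call was also lost without any 1 of the control libraries (0.84 without replicate 1, 0.64 without replicate 2 and 0.66 without replicate 3).

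Mir22hg (chr11:75352365-75357502, plus strand, GRCm39) was at 3.68, 2.96 and 2.92 CPM in control cells and at 33.7, 51.9 and 75.4 CPM in esculetin cells. The groups were far apart, and here the first esculetin library was the lowest of its group, unlike for Malat1, Neat1 and Kcnq1ot1. The estimate was 4.08 (SE 0.28, edgeR adjusted p = 6.63e-07). The row of Mir22 itself had 0 counts in all 12 libraries, so the mature miRNAs printed above were not measured. Tlcd2, a gene on the same strand that shares 206 bases (10.7%) of the Mir22hg exons, was at 2.33 ± 0.460 CPM in control and 3.12 ± 0.687 CPM in esculetin cells (SD, n = 3 each; edgeR adjusted p = 0.190). In the liver Tlcd2 was far above Mir22hg, at 154 ± 16.4 CPM in control and 155 ± 12.3 CPM in esculetin samples (SD, n = 3 each). The part of its reads in the liver level of Mir22hg was not tested.

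**Figure D2:**
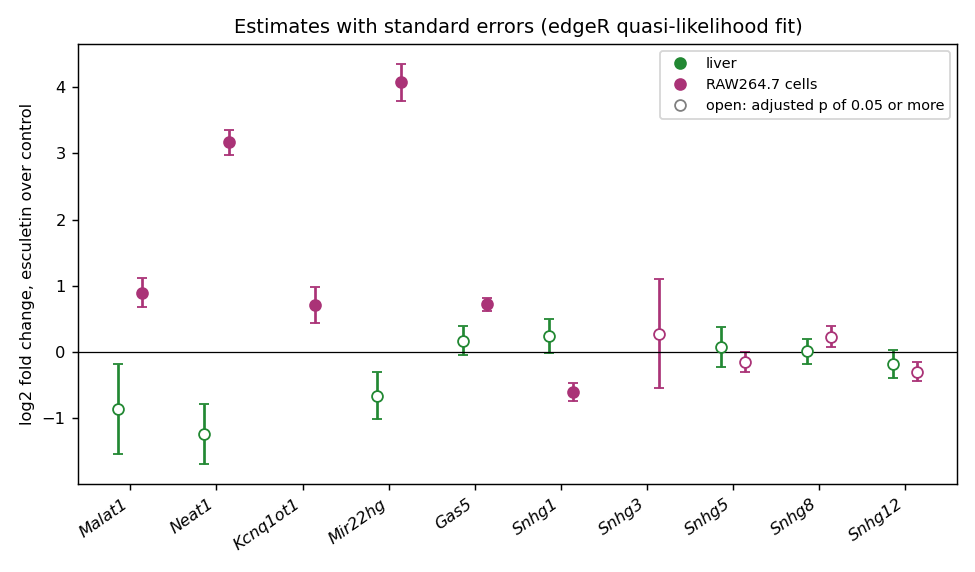
Log2 fold change of esculetin over control for each RNA, with bars of 1 standard error, from edgeR fits of the liver (green) and the cells (purple); filled points had adjusted p under 0.05. The 6 filled points are all from the cells, with Mir22hg at 4.08 and Neat1 at 3.17 above the others, and Kcnq1ot1 and Snhg3 have no liver point because they did not pass the filter on low counts.

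Among the 6 snoRNA hosts of the set, Gas5 rose, Snhg1 fell, and Snhg3, Snhg5, Snhg8 and Snhg12 did not pass the test in the cells. Gas5, first known as a transcript of growth-arrested cells, was at 54.6, 44.4 and 46.0 CPM in control cells and at 76.6, 78.8 and 83.8 CPM in esculetin cells. The groups were clear of each other, and the estimate of 0.72 (SE 0.10, edgeR adjusted p = 8.99e-05) stayed between 0.67 and 0.81 when any 1 library was left out. Snhg1 (chr19:8700319-8703812, plus strand, GRCm39) was at 38.8, 29.0 and 31.5 CPM in control cells and at 23.9, 18.9 and 22.2 CPM in esculetin cells. Each esculetin library was below each control library, at an estimate of -0.61 (SE 0.14, edgeR adjusted p = 0.00279).

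Snhg12 (chr4:132035905-132038762, plus strand, GRCm39) was at 12.0, 12.2 and 10.8 CPM in control cells and at 9.15, 10.4 and 8.98 CPM in esculetin cells. These groups did not overlap either, but the estimate of -0.30 (SE 0.14) did not pass the test (edgeR adjusted p = 0.0840). Snhg5 (chr9:88377321-88405615, minus strand, GRCm39) was at 10.8 to 15.1 CPM in control and 11.5 to 12.8 CPM in esculetin cells, with an estimate of -0.16 (SE 0.15). Snhg8 (chr3:123301192-123302578, minus strand, GRCm39) was at 8.37 to 8.71 CPM and 8.59 to 11.8 CPM, with an estimate of 0.23 (SE 0.16). For these 2 hosts the groups overlapped.

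Snhg3 (chr4:132075325-132080997, minus strand, GRCm39) was the least counted of the set, with 1, 3 and 22 counts in control cells and 3, 9 and 13 in esculetin cells. The spread within the control group exceeded the difference between groups. In the annotation used here, 64.2% of its exon bases were shared with Rcc1 on the same strand and 71.5% with Gm17300 on the opposite strand. Reads of Snhg3 from the shared bases may therefore not have been assigned to it. The level of Snhg3 is uncertain for this reason.

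The strand setting of the counting was not given in the sources used here, and Snhg1 shares 743 bases (21.3% of its exon bases) with Slc3a2 on the opposite strand, which also fell in the cells, from 203 to 102 CPM (edgeR adjusted p = 1.62e-05). Reads of the pair in that stretch cannot be told apart without strand.

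The tables also held rows for the snoRNAs inside the hosts, which would report on the other product of the same transcript. All 28 snoRNA genes inside the 6 hosts, 10 of them in Gas5, 8 in Snhg1 and 5 in Snhg12, had 0 counts in all 12 libraries. In GENCODE vM39, 27 of the 28 lay within an annotated exon of a host transcript. Of 1558 snoRNA genes in the tables, 278 had any count, with 630 counts over the 6 liver libraries and 5072 over the 6 cell libraries. The host values above therefore carry no information on the snoRNAs, Snord47 and Snord80 among them.

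Gas5 and Snhg1 can be set beside all genes that carry snoRNAs. In the cells, 12 of 27 tested noncoding hosts were called (44.4%), 3 higher and 9 lower, with a median log2 fold change of -0.29, and 131 of 215 coding hosts (60.9%), 52 higher and 79 lower, with a median of -0.12. Over all genes tested the median was -0.01, and over 882 tested long noncoding RNA genes, of which 241 were higher and 141 lower, it was 0.22. Of the 21 tested noncoding hosts outside the set, 2 rose and 8 fell, the latter including 1110038B12Rik (-0.63), Snhg20 (-0.78), Epb41l4aos (-1.01) and Snhg18 (-1.22). Of the coding hosts, 30 were ribosomal protein genes, of which 1 rose and 23 fell (median -0.43), with Rps2 at -1.07, Rpl3 at -0.91, Rpsa at -0.80 and Rpl7a at -0.70. The other 185 coding hosts had 51 higher and 56 lower, led by Ncapd2, a condensin subunit (-1.72), Odc1, the first enzyme of polyamine synthesis (2.71), Ybx3 (-1.20) and Rnf149 (1.99).

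**Figure D3:**
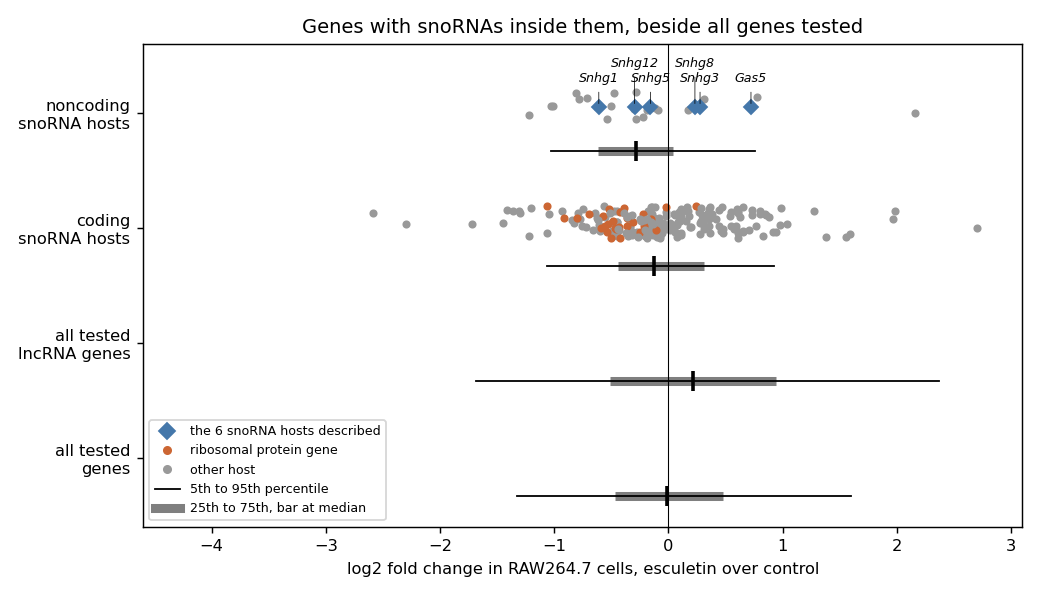
Log2 fold change in RAW264.7 cells for 27 noncoding and 215 coding snoRNA hosts (points; diamonds are the 6 hosts described, orange points ribosomal protein genes), with percentile bars for those lists, for 882 long noncoding RNA genes and for all 13277 genes tested. Gas5 lies at 0.72 and Snhg1 at -0.61 on either side of the noncoding hosts' median of -0.29.

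The proteins that work with these RNAs were counted from fixed lists, to be read against the 57.7% of all genes called in the cells. Of 17 paraspeckle proteins, 9 rose and 4 fell in the cells (76.5% called), with a median log2 fold change of 0.26. Pspc1, a core paraspeckle protein, went from 9.13 to 46.0 CPM (2.33), and Sfpq from 70.4 to 150 CPM (1.09), whereas Dazap1 fell by 0.62 on the log2 scale. Of 17 nuclear speckle proteins, 11 rose and none fell (64.7% called, median 0.48), with the splicing factors Srsf5 at 1.58, Srsf6 at 1.47 and Srsf2 at 0.93 and the speckle scaffold Son at 0.97. Each of these named genes had an edgeR adjusted p of at most 8.26e-05.

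Of 17 snoRNP proteins and assembly factors, 1 rose and 8 fell (52.9% called, median -0.30). The one that rose was Nop58, a core box C/D protein (0.77), while the methyltransferase Fbl (-0.62), the H/ACA protein Nop10 (-0.51) and the assembly factor Ruvbl2 (-0.67) fell. Of 15 nonsense-mediated decay factors 6 rose and 4 fell (66.7% called, median 0.13), with Upf1, its central helicase, at -0.77, Smg9 at -0.56, Upf3a at 0.76 and Smg5 at 0.54. Of 19 genes of ribosome biogenesis and RNA polymerase I 6 rose and 5 fell (57.9% called, median -0.06), among them Polr1c (-0.84), Wdr12 (-0.63), Taf1c (0.69) and Myc, from 3.98 to 13.2 CPM (1.74). Of 4 tested genes of the Kcnq1ot1 imprinted domain, Nap1l4 rose (0.63), Tssc4 fell (-0.48), and Osbpl5 (0.39) and Cd81 (0.02) were not called. Of 12 other abundant or nuclear long noncoding RNAs 5 rose and 1 fell (50.0% called, median 0.69), with Mir155hg, the host of miR-155, at 2.59, Airn (from 2.76 to 7.87 CPM), Tug1 at 0.97 and Firre at 0.80. These lists held 4 to 19 tested genes each, and their shares are given as counts with no test.

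In the liver, no member was called. Of the 10 RNAs, 8 passed the filter, 1 of them (Neat1) had an unadjusted p under 0.05, and no member's groups were separate. Few genes were called there at all, 0.0859% of the 12813 tested (11 genes), while 8.37% had an unadjusted p under 0.05 and 14.5% had groups that did not overlap. In DESeq2, 98 genes and none of the members were called. Under the study's rule, limma-voom at unadjusted p under 0.05 and fold over 1.5, Neat1 was called beside 3.89% of all genes. Without the filter on low counts, edgeR called Malat1 and Neat1 among 339 genes. With the replicate number as a block, edgeR called Neat1, although the numbers were not taken to pair the samples.

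Neat1 was at 52.6, 17.9 and 13.0 CPM in control livers and at 18.4, 8.25 and 8.48 CPM in esculetin livers. The first control library was the highest, and the highest esculetin library lay above 2 of the 3 controls. The estimate was -1.24 (SE 0.45, unadjusted p = 0.0179 and adjusted p = 0.491 in edgeR), and -0.39 without the first control library. Malat1 was at 27.4, 6.27 and 2.51 CPM in control livers and at 12.4, 3.90 and 3.24 CPM in esculetin livers. Its level differed 10.9-fold among the controls alone, and its estimate of -0.86 (SE 0.69, edgeR adjusted p = 0.753) became 0.57 without the first control library. Mir22hg was at 16.6, 11.1 and 4.89 CPM in control livers and at 6.27, 9.29 and 5.05 CPM in esculetin livers, an estimate of -0.66 (SE 0.36, edgeR adjusted p = 0.646) that was -0.23 without that library.

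The 5 tested snoRNA hosts spread less among control livers, with coefficients of variation of 9.37% to 29.2%, against 54.1% to 111% for Malat1, Neat1 and Mir22hg. Gas5 was at 9.56 to 17.4 CPM in control and 12.0 to 17.8 CPM in esculetin livers (estimate 0.17, SE 0.22). Snhg8 was at 6.82 to 8.98 and 6.82 to 9.25 CPM (0.01, SE 0.19), Snhg12 at 4.49 to 5.82 and 4.21 to 5.23 CPM (-0.18, SE 0.21), Snhg1 at 2.68 to 3.21 and 2.59 to 4.25 CPM (0.24, SE 0.26), and Snhg5 at 1.35 to 1.73 and 1.62 to 1.69 CPM (0.08, SE 0.30). Kcnq1ot1 had 12, 5 and 2 counts in control livers and 1, 2 and 0 in esculetin livers, and Snhg3 had at most 3 counts in any liver library. Neither was tested, and Snhg3 was at or under a floor of 3 counts throughout.

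No gene of the lists was called in the liver. The estimates of 16 of 17 nuclear speckle proteins lay below 0 (median -0.28, against -0.02 over all genes). Those of all 30 ribosomal protein hosts lay above 0 (median 0.25). Over all 12813 genes tested in the liver, 6854 estimates lay below 0 and 5959 above. The part of the first control liver in these counts was not tested. Firre, a nuclear long noncoding RNA, was at 7.81 ± 5.39 CPM in control and 1.53 ± 0.537 CPM in esculetin livers (SD, n = 3 each), an estimate of -2.34 (SE 0.46) that did not pass the test (edgeR adjusted p = 0.110).

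The difference between the effect in cells and the effect in liver was tested in 1 model over all 12 libraries, where 27.1% of 15709 genes were called. It was called for 4 of the 10 RNAs, of which Kcnq1ot1 had not passed the filter in the liver and entered through its counts in the cells. The effect was higher in the cells, on the log2 scale, by 4.69 for Mir22hg (SE 0.52, edgeR adjusted p = 1.22e-05) and by 4.37 for Neat1 (SE 0.58, adjusted p = 5.40e-05). For Kcnq1ot1 the difference was 3.14 (SE 1.09, adjusted p = 0.0427), a fitted value that depends on the prior count because all esculetin livers had under 3 counts. For Snhg1 it was -0.89 (SE 0.28, adjusted p = 0.0238). Malat1 (1.71, adjusted p = 0.137) and Gas5 (0.51, adjusted p = 0.152) were not called. Neat1 (3.57 to 4.92) and Mir22hg (4.32 to 5.09) were called with any 1 library left out, and without the first control liver only these 2 were. The call of Kcnq1ot1 was lost without that library (2.28), without control cell replicate 2 (3.07) or 3 (3.08), without esculetin liver replicate 1 (3.13) or 3 (2.66), and with library sizes unscaled (3.12). The call of Snhg1 was lost without control liver replicate 1 (-0.82) or 3 (-0.78), esculetin liver replicate 1 (-0.63) or 2 (-0.85), control cell replicate 1 (-0.78) or esculetin cell replicate 2 (-0.80). Malat1 became called without control liver replicate 3 (2.22) or esculetin liver replicate 1 (2.66), with no filter on low counts (1.70) and with the replicate number as a block (1.44), and Gas5 without control liver replicate 3 (0.76).

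Levels of control cells and control livers differed for most genes (84.9% of 15709 called), and for 7 of the 10 RNAs. Tissue, culture and table differ between these groups together and cannot be told apart. Malat1 was higher in control cells by 5.65 on the log2 scale (SE 0.66), Kcnq1ot1 by 3.51 (SE 0.48), Snhg1 by 2.14 (SE 0.19), Snhg5 by 1.76 (SE 0.21) and Gas5 by 0.47 (SE 0.18), while Snhg8 was at -1.25 (SE 0.18) and Mir22hg at -3.13 (SE 0.39). Neat1 (0.25), Snhg12 (-0.20) and Snhg3 (1.14) were not called. Kcnq1ot1 and Snhg3 had not passed the filter in the liver and entered the model of both tables through their counts in the cells. Neat1 became called without the first control liver (1.04), with no filter (0.36) and with library sizes unscaled (1.57), and Snhg3 with library sizes unscaled (2.45). The call of Gas5 was lost without control cell replicate 1 (0.39), control liver replicate 2 (0.44) or control liver replicate 3 (0.24), and also with relative log expression (RLE) scaling (0.36, edgeR adjusted p = 0.0609) and in DESeq2 (0.36, adjusted p = 0.0636). With library sizes unscaled, the median over all genes moved from 0.03 to 1.40, Snhg8 turned to 0.12 and Snhg12 to 1.17, so directions here are relative to the scaling.

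Per kilobase of annotated exon, the order of the set also differed between the groups. In control cells Malat1 led at 197 ± 24.5 CPM per kb (SD, n = 3), followed by Gas5 at 11.4, Snhg1 at 9.47, Snhg8 at 6.14, Snhg12 at 4.08, Neat1 at 3.80, Snhg5 at 3.05, Mir22hg at 1.66, Snhg3 at 0.434 and Kcnq1ot1 at 0.113. The ranges of Gas5 and Snhg1, of Snhg12 and Neat1, and of Snhg3 and Kcnq1ot1 overlapped. In esculetin cells Neat1 (34.1 ± 10.3 CPM per kb) and Mir22hg (27.9 ± 10.9 CPM per kb), whose ranges overlapped, came next after Malat1 (365 ± 147 CPM per kb).

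In control livers, by contrast, Mir22hg (5.65 ± 3.06 CPM per kb) and Snhg8 (5.64 ± 0.785) led with overlapping ranges, Gas5 followed at 3.19 ± 0.933, and Malat1 was the fifth at 1.53 ± 1.70, overlapping both Snhg12 and Neat1. The order depends on the length used. With the length of the canonical transcript in place of all annotated exons, Gas5 in control cells was at 72.2 and Kcnq1ot1 at 6.14 CPM per kb. Neat1 had 24 annotated transcripts but the same 22397 bases under both lengths, so this change could not move it. Which of its transcripts the counts came from was not tested, and its place in the order is uncertain for this reason.

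Because the selection of RNA for the libraries was not given in the sources used here, the nuclear RNAs were also counted library by library. Malat1, Neat1 and Kcnq1ot1 together took 0.192%, 0.157% and 0.156% of counts in control cells and 0.523%, 0.301% and 0.253% in esculetin cells. They took 0.00897%, 0.00243% and 0.00150% in control livers and 0.00302%, 0.00121% and 0.00114% in esculetin livers. In each of the 4 groups the library numbered 1 held the highest share. The 6 snoRNA hosts together took 0.00243% to 0.00384% in control livers and 0.00287% to 0.00338% in esculetin livers. In the cells they took 0.0111% to 0.0132% in control and 0.0129% to 0.0132% in esculetin libraries.

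**Figure D4:**
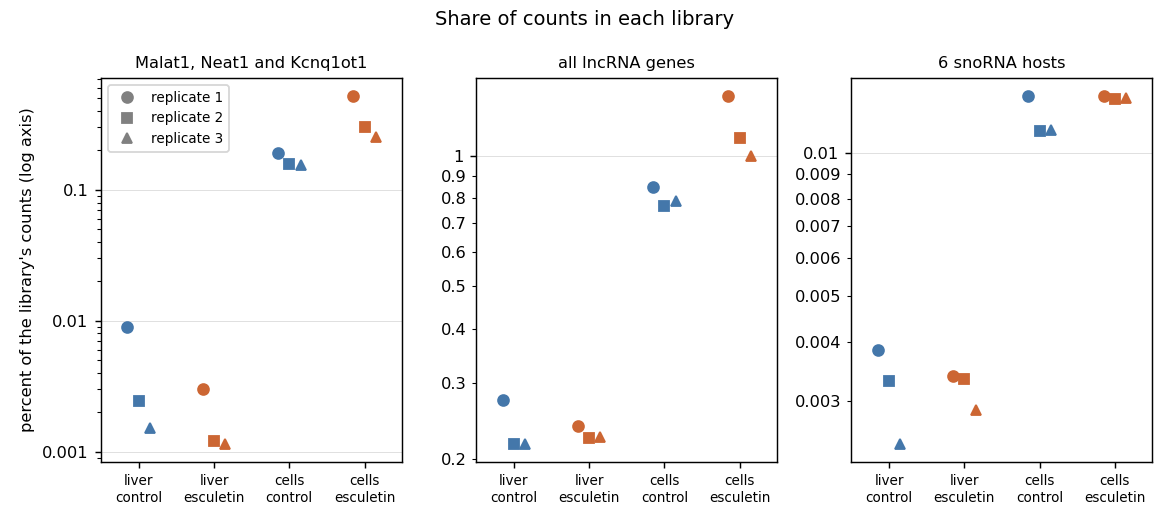
Percent of each library's counts, on log axes that differ between panels, from Malat1, Neat1 and Kcnq1ot1 together, from all long noncoding RNA genes and from the 6 snoRNA hosts; marker shapes are replicates, controls are blue and esculetin libraries orange. In the first panel replicate 1 is the highest of its group in all 4 groups, at 0.00897% in control livers and 0.523% in esculetin cells.

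Other sets of RNAs, not all of them nuclear or without a poly(A) tail, moved with these libraries in part. All long noncoding RNA genes together took 0.273% of counts in the first control liver, against 0.217% in each of the other controls, and 1.37% in the first esculetin cell library, against 1.10% and 1.001%. That total includes Malat1, Neat1 and Kcnq1ot1. They alone took 0.523%, 0.301% and 0.253% of counts in the esculetin cell libraries and 0.00897% in the first control liver. RNAs without a poly(A) tail (Rn7sk, Rmrp, Terc and others, 10 rows) summed to 272 counts in the first esculetin cell library and to 15 to 55 in the other cell libraries. Rn7sk, the scaffold of the 7SK particle, was the only one of them tested (estimate 2.92, SE 0.78, edgeR adjusted p = 0.00735, with 1.07 ± 0.396 CPM in control and 8.22 ± 10.1 CPM in esculetin cells; SD, n = 3 each). Mlxipl, Gcgr and Nlrp6, mRNAs retained in hepatocyte nuclei, summed to 0.0558%, 0.0415% and 0.0335% of counts in control livers and 0.0357% to 0.0366% in esculetin livers. Histone genes took 0.0373% to 0.0392% in control and 0.0375% to 0.0411% in esculetin livers. In esculetin cells they were lowest in the first library, at 0.0379% against 0.0431% and 0.0432%, and control cells held 0.0320% to 0.0340%. The snoRNA genes took 0.00109% in the first control liver and 0.000448% to 0.000624% in the other livers, and 0.00508% in the first esculetin cell library against 0.00439% to 0.00527% in the other cell libraries. Mitochondrial genes took 6.35% in the first control liver, 3.60% and 4.56% in the other controls and 4.29% to 4.59% in esculetin livers. In the cells they took 4.02% to 4.61% in control libraries and 4.71%, 4.52% and 3.68% in the esculetin libraries. The part of nuclear RNA yield in the values of Malat1, Neat1 and Kcnq1ot1 was not tested. Without the first esculetin cell library, Neat1 remained at a log2 fold change of 2.89 (edgeR adjusted p = 1.64e-10) and Mir22hg at 4.32 (adjusted p = 1.01e-09).

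Likeness of pattern was measured as the root mean square difference of log2(CPM + 0.5), centred within each table, over the 12 libraries, among 10448 other genes tested in both tables. Nearest to Malat1 were Ccnl1 (0.397), a cyclin of splicing, and Prpf39 (0.415), a U1 snRNP factor, where the median gene differed by 0.912. The log2 fold changes in liver and cells were -0.91 and 0.29 for Ccnl1 and -1.14 and 0.66 for Prpf39. Those of Malat1 were -0.86 and 0.89, so a near gene need not share the size of its change in the cells. Nearest to Neat1 were Socs3 (0.514), an inhibitor of cytokine signalling, and Eme2 (0.526), and to Mir22hg were Csf2rb2 (0.357), a cytokine receptor chain, and Tfrc (0.364), the transferrin receptor, with median genes at 1.29 and 1.45. Gas5 was most like Stim2 (0.116) and Ltn1 (0.118), Snhg1 most like Klhl23 (0.118) and Rbm15 (0.128), Snhg5 most like Mocs2 (0.0852) and Tmem167b (0.101), Snhg8 most like Rnf144b (0.0935) and Eef2k (0.104), and Snhg12 most like Zbtb43 (0.0467) and Ranbp10 (0.0652). These distances describe 12 libraries with a shared treatment and carry no test.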

How the data were processed

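Counts per gene were deposited by the authors as 2 tables of raw, whole-number read counts, 1 for 6 liver and 1 for 6 RAW264.7 libraries. Total RNA was taken with Trizol, libraries were made with an NEBNext Ultra RNA kit and read as pairs on an Illumina NovaSeq, and per the labels and methods the authors aligned reads to GRCm39 with HISAT 2.2.1 and counted them with featureCounts. RNA selection, strand setting, annotation release and handling of multi-mapping reads were not given in the sources used here. No column was left unused (0).

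Ensembl identifiers were matched to GENCODE vM39 (54749 of 55357; the other 608 held at most 0.0330% of counts). Genes passing filterByExpr (minimum count 10, minimum total 15) were fitted per table with edgeR 4.0.16 (R 4.3.3; TMM, glmQLFit, glmQLFTest), esculetin against control, with Benjamini-Hochberg adjustment over all genes tested; a 4-group model of all 12 libraries gave the difference of effects and the control levels. Log2 fold changes are edgeR's, and each SE was taken from the estimate and its F statistic. Alternatives were RLE, upper-quartile and no scaling, no filter, a filter at 1 CPM in 3 libraries, DESeq2 1.42.0, limma-voom 3.58.1, the study's rule (limma-voom p under 0.05 and fold over 1.5), no mitochondrial genes, a replicate block, and leaving out each library. On simulated counts the fit recovered 74% (liver) and 82% (cells) of changes of 1 log2 unit among 12638 and 13066 genes. For the difference of effects, the 4-group model recovered less, 50% of changes of 1 log2 unit and 67% of changes of 2 units among 15451 genes. Each simulated gene took the typical spread of genes at its level, not its own spread. These shares were therefore not measured at the spread that Malat1, Neat1 and Mir22hg had among control livers. Replicate pairs differed beyond sampling noise. With 3 against 3 an exact permutation test cannot go below p = 0.1, so none was used.

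The members and lists were chosen with earlier results of these data known. Named were every member, up to 4 genes of each list with the smallest unadjusted p in the table discussed, the 2 genes nearest to each member tested in both tables, and genes overlapping or lying inside a member. Slc3a2, Tlcd2, Rcc1 and Gm17300 are such overlaps, and some genes the rule names are not reported here. Sequences came from GENCODE (GRCm39) and RefSeq (GRCm38.p6), with no positions converted between builds.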

Additional observations from a re-analysis of the deposited data

Results flagged for a closer look

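The effect of esculetin differed between RAW264.7 cells and liver, by the test of that difference in the 12-library edgeR model, for 4 of the 10 RNAs, where 27.1% of the 15709 genes tested were called. The log2 effect in cells minus that in liver was 4.69 for Mir22hg (adjusted p = 1.22e-05) and 4.37 for Neat1 (adjusted p = 5.40e-05), and both stayed called whichever 1 library was left out. For Kcnq1ot1, which passed the filter only through the cells, it was 3.14 (adjusted p = 0.0427), with 1, 2 and 0 counts in the esculetin livers. For Snhg1 it was -0.89 (adjusted p = 0.0238). These 2 calls were lost without the first control liver, at 2.28 and -0.82, and without several other single libraries, and that of Kcnq1ot1 also with library sizes unscaled (3.12). Dose, route, duration and material differed between the tables, so their parts in the difference cannot be told apart.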

How the results depend on the processing

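The calls in the cells numbered 5 or 6 under every alternative and always held Neat1, Mir22hg, Malat1, Gas5 and Snhg1, and those of noncoding and coding snoRNA hosts stayed within 1.5 times the counts of 12 and 131. Kcnq1ot1 alone lost its call in the cells, at 0.64 with library sizes unscaled and 0.59 in limma-voom, and Snhg12 gained one at -0.36 with library sizes unscaled. In the liver, 2 members (Malat1 at -0.88 and Neat1 at -1.25) were called with no filter, where 339 genes were called against 11, and 1 (Neat1 at -1.04) under the study's rule, where 499 were. With the replicate number as a block 1 member was called in the liver (Neat1 at -1.11, adjusted p = 0.00219, with 123 genes called), and Malat1 at 1.44 was called between effects, as it was at 1.70 with no filter, whereas Kcnq1ot1 lost that call at 3.12 with library sizes unscaled. The deviations of same-numbered libraries correlated at 0.14, -0.0053 and 0.103 in the liver and 0.165, -0.030 and 0.080 in the cells, and not every library was most like its own number, so the numbers were not taken to pair the samples. Snhg8 in the liver, with no difference between groups, turned to -0.0081 with a filter at 1 CPM, -0.058 with library sizes unscaled, -0.00098 in limma-voom and -0.0055 without mitochondrial genes. In control cells against control liver, unscaled library sizes turned Snhg8 to 0.12 and Snhg12 to 1.17 and gave calls to Neat1 at 1.57 and Snhg3 at 2.45. No filter also gave Neat1 a call there, at 0.36, and Gas5 lost its call at 0.36 both with RLE scaling and in DESeq2. Leaving out 1 library at a time gave 2 to 5 differences between effects, with 2 left without the first control liver. Estimates then ranged in the liver from -1.78 to 0.57 for Malat1, -0.045 to 0.40 for Gas5, -0.0030 to 0.17 for Snhg5 and -0.13 to 0.12 for Snhg8, from -0.24 to 2.25 for Snhg3 in the cells, from -0.21 to 0.030 for Snhg12 between effects, and from -0.12 to 1.04 for Neat1 and -0.81 to 2.43 for Snhg3 between controls. The mean share of Malat1, Neat1 and Kcnq1ot1 in control cells moved from 0.168% to 0.192% without the 20 most abundant genes, as the total then shrinks. The length of the canonical transcript, chosen after seeing the data, moved Gas5, Snhg1, Snhg3, Snhg5, Snhg8 and Kcnq1ot1 per kb. For the other changes the cause was not tested. Depth limits Snhg3 and, in the liver, Kcnq1ot1, which had at most 3 and 12 counts a library there.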
